A study of Mus musculus with 8 samples.

Results

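The Polycomb complex subunits compared here were 10 genes, Ezh2, Ezh1, Eed, Suz12, Jarid2, Mtf2, Ring1, Rnf2, Cbx7 and Cbx2. They were followed through every probe set of a mouse expression array that the probe annotation assigns to one of them and to no other gene. The array carried 33 such probe sets among 45101. Of these, 25 exceeded the expression minimum, a linear value over 50 in 1 array or more, and each of the 10 genes kept at least 1, so all 10 were among the 11940 genes tested. The RNA came from V6.5 mouse embryonic stem cells (ESCs), a pluripotent line grown on gelatin with LIF. All cells carried a lentivirus with a constitutive shRNA against the endogenous mouse Wdr5 mRNA together with a human WDR5 cDNA, inducible by doxycycline and linked to GFP, and they were sorted for GFP. The cDNA encoded either wild-type WDR5 (WT) or F266A, which is a mutation of the RNA-binding cleft of this adaptor, which serves the MLL histone H3 lysine 4 methyltransferases. Doxycycline was given at 2 µg per mL (+dox) or withheld (-dox). The 4 groups, named WT +dox, WT -dox and likewise for F266A, had 2 biological duplicates each, making 8 arrays. Because the shRNA was constitutive, cells with an untouched endogenous Wdr5 mRNA were not among the groups. Nor were cells without a transgene, so an effect of doxycycline itself cannot be told apart from that of the transgene. A single line of each transgene is described, so a difference between WT and F266A cannot be told apart from other differences between the 2 lines, and p-values measure the spread between duplicates of a line.

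Polycomb proteins keep developmental genes silent through 2 kinds of complex. In Polycomb repressive complex 2 (PRC2), Ezh2 or its paralogue Ezh1 methylates lysine 27 of histone H3, Suz12 is the scaffold on which the enzyme is assembled, and Eed binds the finished mark and stimulates the enzyme. Jarid2 and Mtf2 are accessory subunits that help bring PRC2 to its sites, and Mtf2 binds CpG-rich DNA. In Polycomb repressive complex 1 (PRC1), Ring1 and Rnf2 are the ubiquitin ligases that modify histone H2A, and the chromodomain proteins Cbx7 and Cbx2 bind the mark left by PRC2. In ESCs many developmental promoters carry both this mark and the histone H3 lysine 4 methylation made by the MLL complexes that contain WDR5, the so-called bivalent promoters. The arrays therefore allow the question of whether mRNA levels of the Polycomb machinery moved when the WT transgene was shut off or replaced by the F266A form.

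The 250 bases upstream of the annotated start are shown for Mtf2 and Suz12, the subunits whose mRNA fell most, and for Ezh2, which rose, because groups of subunits moved in opposite directions. Sequences and positions are from RefSeq on the mouse assembly GRCm38.p6. A promoter entry matched 9 of the 10 genes, 11 entries in all. Capitals mark exact matches, on either strand, to the CCAAT box (CCAAT) and the GC box (GGGCGG), and in these 3 sequences no match overlaps another.
Mtf2, chr5:108065424-108065673, + strand: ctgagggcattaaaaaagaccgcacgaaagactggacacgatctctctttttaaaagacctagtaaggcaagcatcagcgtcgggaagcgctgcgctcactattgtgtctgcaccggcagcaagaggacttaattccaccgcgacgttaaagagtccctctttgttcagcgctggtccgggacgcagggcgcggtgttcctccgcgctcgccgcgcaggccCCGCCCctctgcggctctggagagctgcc
Suz12, chr11:79992856-79993105, + strand: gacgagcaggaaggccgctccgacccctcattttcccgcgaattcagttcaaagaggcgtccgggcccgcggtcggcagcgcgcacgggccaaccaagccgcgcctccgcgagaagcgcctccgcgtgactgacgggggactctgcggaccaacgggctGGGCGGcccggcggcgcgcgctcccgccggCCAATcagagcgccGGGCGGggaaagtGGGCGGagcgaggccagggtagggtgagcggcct
Ezh2, chr6:47595031-47595280, - strand: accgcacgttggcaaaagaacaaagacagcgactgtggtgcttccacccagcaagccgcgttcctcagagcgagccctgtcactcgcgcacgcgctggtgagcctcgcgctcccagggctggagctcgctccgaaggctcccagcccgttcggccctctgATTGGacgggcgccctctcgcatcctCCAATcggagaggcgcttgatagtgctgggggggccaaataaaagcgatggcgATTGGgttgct
The Ezh2 sequence holds 3 CCAAT matches and no GC box. The Suz12 sequence holds 1 CCAAT match and 3 GC boxes, and the printed Mtf2 sequence 1 GC box. Of all 32851 promoter entries of this length, 33.8% hold a CCAAT match and 32.7% a GC box. None of the 11 entries of these genes holds an exact E2F (TTTCGCGC or TTTGGCGC), E-box (CACGTG) or ETS (CCGGAAG) match, which occur in 0.654%, 6.02% and 6.91% of all entries, respectively. The printed sequences are rich in CG dinucleotides, with 37 in the Suz12 sequence and 23 each in the Ezh2 and Mtf2 sequences against a median of 6 over all entries. A second RefSeq entry for Mtf2, not printed, holds only 2 CG dinucleotides, 1 CCAAT match and no GC box. At least 20 were found in 8 of the 11 entries, compared with 17.9% of all entries. Such matches describe letters and say nothing of binding.

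Values are log2 expression after robust multi-array averaging (RMA), averaged over the probe sets of a gene, and differences are log2 differences between group means. Duplicates correlated at r = 0.997 to 0.998 over all probe sets, and arrays of different groups at 0.985 to 0.996. The 10 ESC markers examined were all over the minimum in these cells. Whether the 2 Wdr5 probe sets read the endogenous mRNA, the human transgene or both was not established here, so they check the labels only in part. The Wdr5 probe set 1416581_at read 9.68 and 9.70 in the WT +dox arrays, 10.62 and 10.57 in the WT -dox arrays, 9.83 and 9.77 in the F266A +dox arrays and 10.30 and 10.39 in the F266A -dox arrays, so it was higher in both groups without doxycycline. A second Wdr5 probe set, 1448389_at, ran the same way, from 6.94 to 7.36 with doxycycline and from 8.13 to 8.32 without it. Calls were made where the adjusted p was under 0.05 (limma, Benjamini-Hochberg adjustment over all genes tested).

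**Figure D1:**
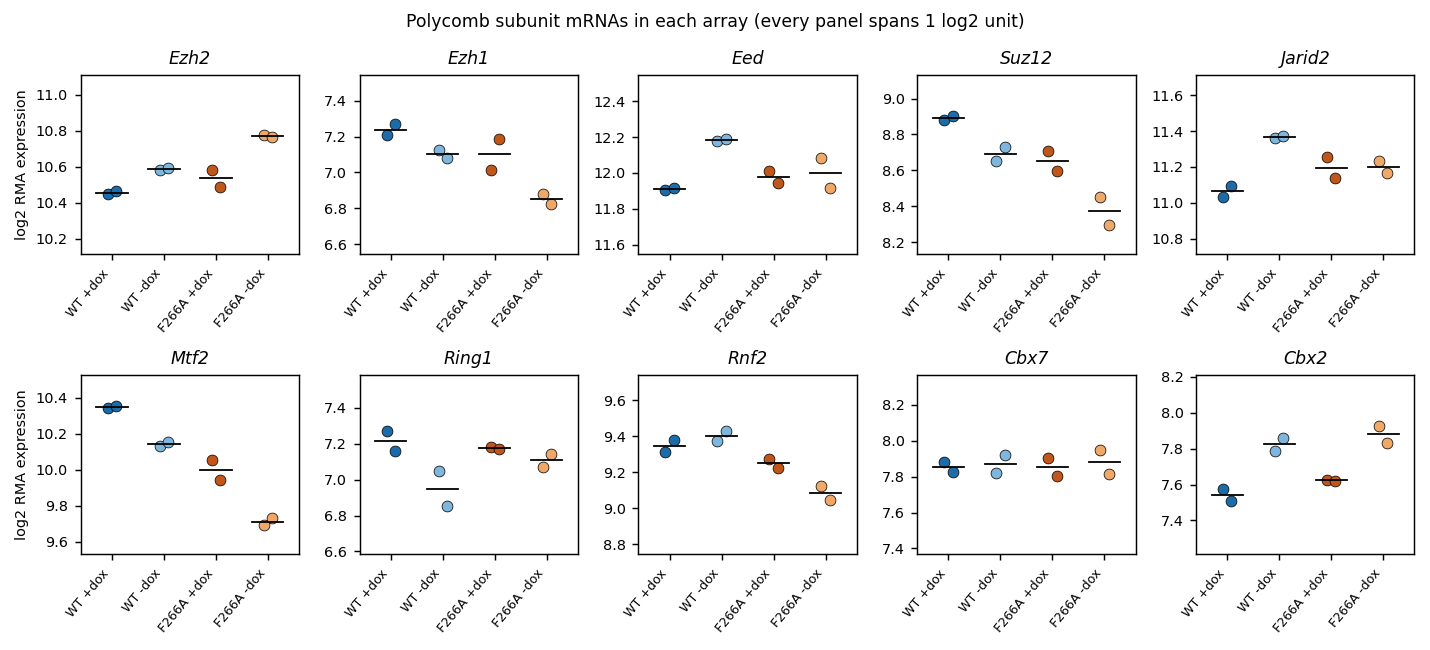
Log2 expression (y axis, 1 log2 unit per panel) of the 10 Polycomb subunits in the 4 groups (x axis). Points are single arrays and lines are group means (n = 2). Mtf2 ran from a mean of 10.35 in WT +dox down to one of 9.71 in F266A -dox, whereas the group means of Cbx7 stayed within 0.03.

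Mtf2 showed the largest spread of group means among the subunits. Its level was 10.34 and 10.35 in the WT +dox arrays, 10.13 and 10.15 in the WT -dox arrays, 10.05 and 9.94 in the F266A +dox arrays and 9.69 and 9.73 in the F266A -dox arrays. The 4 groups did not overlap and stood in the order WT +dox, WT -dox, F266A +dox, F266A -dox. Of the neighbours in this order, WT +dox and WT -dox differed, as did F266A +dox and F266A -dox, while WT -dox and F266A +dox did not differ beyond the spread (0.14 ± 0.07, SE, adjusted p = 0.198). Between the end groups Mtf2 fell by 0.64 ± 0.07 (SE, adjusted p = 5.08e-05), so that its linear signal fell by 35.8%. All 5 of its probe sets over the minimum were called lower in that comparison, by 0.47 to 0.85, against 47% of all single probe sets called, and 1 further probe set did not reach the minimum.

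Suz12, the PRC2 scaffold, had a similar profile. It read 8.88 and 8.90 in the WT +dox arrays, 8.65 and 8.73 in the WT -dox arrays, 8.71 and 8.60 in the F266A +dox arrays and 8.45 and 8.30 in the F266A -dox arrays. The F266A -dox arrays were below all others, the WT +dox arrays above all others, and the 2 middle groups overlapped. From WT +dox to F266A -dox Suz12 fell by 0.52 ± 0.08 (SE, adjusted p = 0.000447, limma), and its linear signal fell by 30.2%. All 6 of its probe sets were called lower there, by 0.29 to 0.74, against 47% of all single probe sets called in either direction. Of the neighbouring groups, F266A -dox and F266A +dox differed. The call between WT -dox and WT +dox was not made (adjusted p = 0.0746).

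The 2 methyltransferases went in opposite directions. Ezh2, the main enzyme of PRC2 in dividing cells, was 10.45 and 10.47 in the WT +dox arrays, 10.58 and 10.59 in the WT -dox arrays, 10.58 and 10.49 in the F266A +dox arrays and 10.78 and 10.77 in the F266A -dox arrays. It was highest in both F266A -dox arrays and rose by 0.31 ± 0.06 (SE, adjusted p = 0.00299) over WT +dox, which is 24.4%. No pair of neighbours in its order differed. Ezh1, the paralogue with weaker enzymatic activity, was 7.21 and 7.27 in the WT +dox arrays, 7.13 and 7.08 in the WT -dox arrays, 7.01 and 7.19 in the F266A +dox arrays and 6.88 and 6.82 in the F266A -dox arrays. It fell by 0.39 ± 0.08 (SE, adjusted p = 0.00235) between the end groups, and F266A -dox and F266A +dox were the neighbours that differed. Its 2 probe sets over the minimum disagreed: 1449023_a_at was lower by 0.59 in F266A -dox than in WT +dox (adjusted p = 0.000502) and already by 0.34 in WT -dox (adjusted p = 0.0167), whereas 1418290_a_at differed by -0.18 and 0.07 in these comparisons and was not called in either.

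The Eed and Jarid2 mRNAs were highest in WT -dox. Eed read 11.91 and 11.92 in the WT +dox arrays, 12.18 and 12.19 in the WT -dox arrays, 12.01 and 11.95 in the F266A +dox arrays and 12.08 and 11.92 in the F266A -dox arrays. Jarid2 read 11.03 and 11.10 in the WT +dox arrays, 11.36 and 11.37 in the WT -dox arrays, 11.25 and 11.14 in the F266A +dox arrays and 11.23 and 11.17 in the F266A -dox arrays. For both genes the WT -dox arrays lay above all others, and no neighbours in their order of means were called different. All 3 Jarid2 probe sets were higher in WT -dox than in WT +dox, but 1450710_at alone was called (0.46 ± 0.09, SE, adjusted p = 0.00575), against 27.5% of all single probe sets.

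Among the PRC1 subunits, the ligase Rnf2 was 9.31 and 9.38 in the WT +dox arrays, 9.37 and 9.43 in the WT -dox arrays, 9.27 and 9.22 in the F266A +dox arrays and 9.12 and 9.05 in the F266A -dox arrays, lowest in both F266A -dox arrays. The other ligase, Ring1, was lowest in WT -dox (7.05 and 6.85), with 7.27 and 7.16 in the WT +dox arrays, 7.18 and 7.17 in the F266A +dox arrays and 7.07 and 7.14 in the F266A -dox arrays, and its WT -dox duplicates differed by more than those of any other group. The reader Cbx2 was higher in both groups without doxycycline, at 7.79 and 7.86 for WT and 7.93 and 7.83 for F266A, than in WT +dox (7.57 and 7.51) or F266A +dox (7.63 and 7.62). Cbx7, the mean of 2 probe sets, lay between 7.80 and 7.95 in all 8 arrays. Its groups overlapped throughout, and it was not called in any comparison. Of the 2, 1420039_s_at passed the minimum only in the first F266A -dox array (5.68). The better expressed 1433557_at was higher without overlap on WT withdrawal (0.08), on F266A withdrawal (0.04) and between F266A -dox and WT +dox (0.08). It was lower without overlap in F266A +dox than in WT -dox (-0.04). It overlapped between the induced and between the uninduced lines, and it was not called in any comparison. For these 4 genes no neighbours in the order of group means were called different. Over the 10 subunits the median range of group means was 0.32, and over all genes tested it was 0.30. No subunit changed by 2-fold in any comparison, while 5.96% of all genes tested had a range of group means of at least 1.

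**Figure D2:**
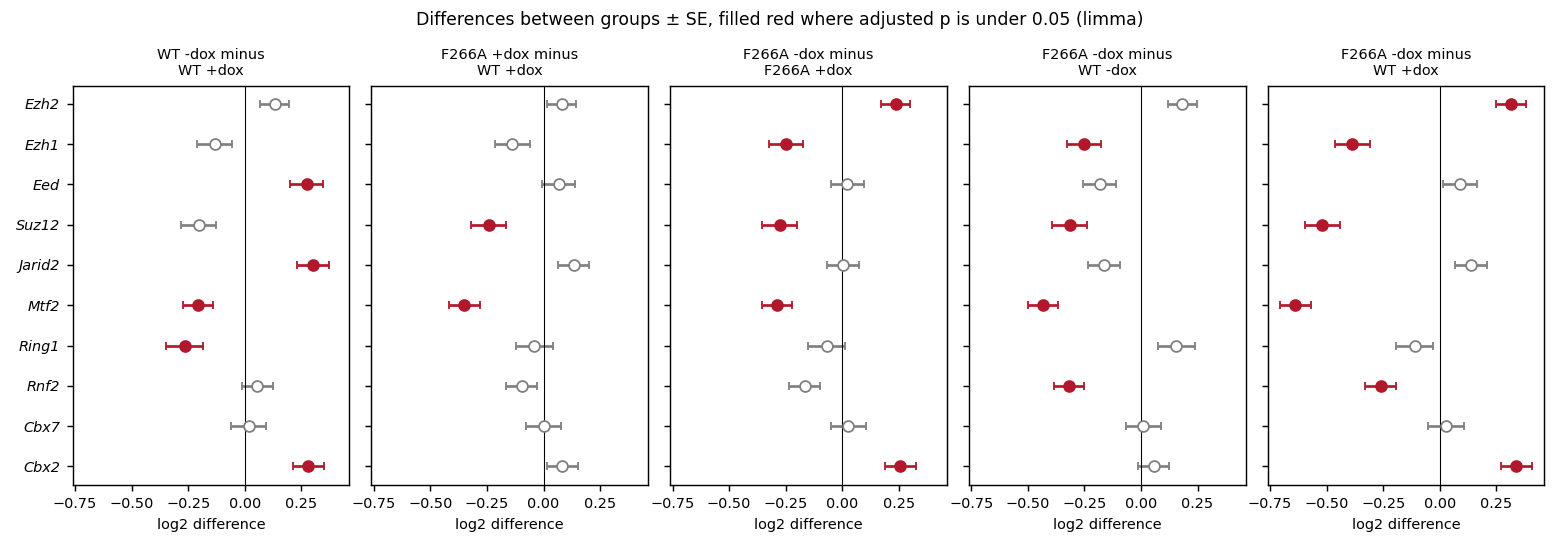
Log2 difference (x axis) of each subunit (y axis) in 5 comparisons. Points are differences between means of 2 arrays each, bars are SE, and filled red points have an adjusted p under 0.05 in limma. The largest differences are those of Mtf2 (-0.64) and Suz12 (-0.52) between F266A -dox and WT +dox.

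Withdrawal of doxycycline in the WT line, meant to shut off the transgene, was accompanied by changes in 5 of the 10 subunits. Jarid2 rose by 0.30 ± 0.07 (adjusted p = 0.0103), Cbx2 by 0.28 ± 0.07 (adjusted p = 0.0127) and Eed by 0.27 ± 0.07 (adjusted p = 0.0199), while Ring1 fell by 0.27 ± 0.08 (adjusted p = 0.0341) and Mtf2 by 0.21 ± 0.07 (adjusted p = 0.0436; all SE, limma). Across all genes 31.5% were called in this comparison, and the arrays of the 2 groups did not overlap for 8 of the 10 subunits and for 67.5% of all genes. The median difference over the subunits was 0.04, compared with 0.00 over all genes tested. The calls were sensitive to single arrays: 1 subunit was called without either WT +dox array, 2 without the first WT -dox array and 0 without the second. Without that second array the Ring1 difference was -0.17 (adjusted p = 0.242), while that of Jarid2 was 0.30 (adjusted p = 0.0594).

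With doxycycline present, cells with F266A differed from cells with WT in 2 subunits, both lower in F266A, against 28.3% of all genes called and 12.5% called lower. Mtf2 was lower (-0.35 ± 0.07, SE, adjusted p = 0.00441) and was called in each of 16 alternative analyses (the 2-fold threshold not counted). Suz12 was lower as well (-0.24 ± 0.08, SE, adjusted p = 0.0439), but this call was lost in 9 of the 16, including without either array of WT +dox, WT -dox or F266A +dox, with differences from -0.30 to -0.19. The other 8 subunits were not called, with differences from -0.14 for Ezh1 to 0.13 for Jarid2. Among single probe sets of these 8, 1449023_a_at of Ezh1 was called lower and 1 of the 3 Jarid2 probe sets higher. For the 2 called subunits, 4 of 5 Mtf2 probe sets were called lower, but only 1 of 6 Suz12 probe sets.

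Withdrawal of doxycycline in the F266A line was also accompanied by changes in 5 subunits, against 19.5% of all genes. Cbx2 rose by 0.26 ± 0.07 (adjusted p = 0.0292) and Ezh2 by 0.24 ± 0.06 (adjusted p = 0.0331), and Mtf2 fell by 0.29 ± 0.07 (adjusted p = 0.0174), Suz12 by 0.28 ± 0.08 (adjusted p = 0.0348) and Ezh1 by 0.25 ± 0.08 (adjusted p = 0.0489; all SE, limma). The count was 1 without either F266A +dox array or the first F266A -dox array and 2 without the second, and 3 without either WT -dox array. The Ezh1 call remained in 2 of 16 alternatives and the Ezh2 call in 6. Tested as single probe sets, 3 of 5 of Mtf2, 2 of 6 of Suz12 and the 1 of Cbx2 were called. The 1 Ezh2 probe set (adjusted p = 0.0547, limma) and the 2 Ezh1 probe sets (0.175 and 0.123) were not called. Eed and Jarid2 differed by 0.02 ± 0.07 and 0.00 ± 0.07, with 95% confidence intervals from -0.14 to 0.19 and from -0.15 to 0.16.

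Without doxycycline, 4 subunits were lower in the F266A line than in the WT line and none was called higher, against 27.4% of all genes called and 13.4% called lower. These were Mtf2 (-0.43 ± 0.07, adjusted p = 0.00149), Rnf2 (-0.32 ± 0.07, adjusted p = 0.00777), Suz12 (-0.32 ± 0.08, adjusted p = 0.0152) and Ezh1 (-0.25 ± 0.08, adjusted p = 0.0362; all SE, limma). All 5 Mtf2 and all 3 Rnf2 probe sets were called lower, as were 3 of the 6 Suz12 probe sets, against 21.8% of all single probe sets called. The 2 Ezh1 probe sets were lower but not called (adjusted p = 0.203 for 1418290_a_at and 0.0636 for 1449023_a_at, limma). The Mtf2 call remained in all 16 alternatives. Without the second WT -dox array it was the only call left (Rnf2 -0.29, adjusted p = 0.0613, and Suz12 -0.28, adjusted p = 0.103), and 2 were left without the second F266A -dox array. The Ezh1 call was lost without each of the 4 arrays compared (adjusted p = 0.0647 to 0.158).

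Between the end groups, F266A -dox and WT +dox, 6 subunits were called, against 50.9% of all genes: Mtf2, Suz12, Ezh1 and Rnf2 fell, and Ezh2 and Cbx2 rose. The arrays of these groups did not overlap for 9 of the 10 subunits and for 74.8% of all genes. Rnf2 fell by 0.26 ± 0.07 (SE, adjusted p = 0.00979) and Cbx2 rose by 0.34 ± 0.07 (SE, adjusted p = 0.00268). The Mtf2, Suz12 and Ezh2 calls remained in all 16 alternatives, whereas Rnf2 was not called without the second WT +dox array (-0.23, adjusted p = 0.0623) or the second F266A -dox array (-0.22, adjusted p = 0.0559). With no expression minimum the Ezh1, Rnf2 and Cbx2 calls were lost, since probe sets near background then enter their means. The median difference over the 10 subunits was -0.02 between the induced lines, -0.03 on F266A withdrawal, -0.17 between the uninduced lines and -0.04 between the end groups, beside medians over all genes within 0.01 of 0. The comparisons above share arrays and are not independent of each other.

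Whether withdrawal acted differently in the 2 lines was tested as an interaction. None of the 10 subunits was called by limma, against 5.15% of all genes, and 3 had an unadjusted p under 0.05, against 21.2% of all genes: Jarid2 (-0.30 ± 0.10, SE, adjusted p = 0.123), Eed (-0.25 ± 0.10, SE, adjusted p = 0.208) and Rnf2 (-0.22 ± 0.10, SE, adjusted p = 0.224). The rise of Eed and Jarid2 on WT withdrawal is thus not shown to be particular to that line, although with a trended and robust variance prior both interactions were called (adjusted p = 0.0345 and 0.0162). For Mtf2 and Suz12, which fell on F266A withdrawal, the interaction values were -0.08 ± 0.10 and -0.07 ± 0.11 (SE). Directly between F266A +dox and WT -dox, limma called none of the subunits, against 13.5% of all genes, with 4 at an unadjusted p under 0.05 (28.7% of all genes), while 2 were called with the trended and robust prior and 1 with quantile normalization.

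Marker lists of ESCs and of other cell types were summed on the linear scale over the markers and probe sets above the minimum. The sum of the 10 ESC markers stood in the same order of groups as Mtf2 and Suz12, with 62571 to 63523 in the WT +dox arrays, 57209 to 58429 in the WT -dox arrays, 55612 to 56068 in the F266A +dox arrays and 45608 to 47946 in the F266A -dox arrays. Not every ESC marker followed this order. On WT withdrawal 5 of the 10 were called lower, against 31.5% of all genes called and 1838 of 11940 called lower. The group means of Pou5f1, Utf1, Zfp42 and Tdgf1 were higher in WT -dox than in WT +dox (0.08, 0.24, 0.10 and 0.08, none called). Those of Nanog, Klf4 and Dppa5a were higher in F266A +dox (12.36, 11.77 and 14.27) than in WT -dox (12.33, 11.60 and 14.24), none called. Only Esrrb, Fgf4 and Sox2 followed the order of the sum in their group means.

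Of the 6 trophoblast markers Elf5 and Gata3 were below the minimum, and the sum of the other 4 was 2754 to 2931 in the WT +dox arrays, 3419 to 3753 in the WT -dox arrays, 10394 to 10708 in the F266A +dox arrays and 12920 to 14652 in the F266A -dox arrays. The genes named from here on in these marker lists were picked after their values were seen. That sum is carried by the keratins Krt8 and Krt18, which were higher in F266A +dox than in WT +dox by 2.23 ± 0.09 and 2.19 ± 0.09 (SE, adjusted p = 1.23e-06 and 2.23e-06), whereas the trophoblast factor Tfap2c ran the other way, with group means of 9.28, 9.00, 8.76 and 8.51 from WT +dox to F266A -dox. Of the 8 fibroblast markers Col1a1, Col3a1, Thy1, Pdgfrb, Lum and Postn were below the minimum. The other 2 were higher in F266A: the actin gene Acta2 by 1.44 ± 0.24 (SE, adjusted p = 0.00198) between the induced lines and by 1.52 ± 0.24 (SE, adjusted p = 0.00156) between the uninduced lines, and the collagen gene Col1a2 by 0.80 ± 0.16 (SE, adjusted p = 0.00495) between the uninduced lines. The fibroblast sums were 665 to 850 in the WT +dox arrays, 625 to 872 in the WT -dox arrays, 1907 to 1997 in the F266A +dox arrays and 1598 to 2668 in the F266A -dox arrays. With all 8 markers and all their probe sets, without a minimum, they were 201 to 204, 199.5 to 211, 220.3 to 231 and 229 to 256 in these groups.

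Of the 6 primitive endoderm markers Gata4, Sox17, Sox7 and Pdgfra were below the minimum and Gata6 was not called. Dab2 was higher in F266A than in WT by 1.01 ± 0.16 (SE, adjusted p = 0.00152) between the induced and by 1.01 ± 0.16 (SE, adjusted p = 0.00158) between the uninduced lines, with group means of 5.65, 5.92, 6.66 and 6.93 from WT +dox to F266A -dox. All 4 neural markers passed, with sums that did not follow the order of Mtf2 and Suz12, from 422 to 454 in the WT +dox arrays, from 545 to 567 in the WT -dox arrays, from 505 to 514 in the F266A +dox arrays and from 633 to 657 in the F266A -dox arrays. Between the end groups 3 of them were called higher and 1, Sox1, lower, against 50.9% of all genes called. The group means of Sox1 were 6.08, 5.71, 5.72 and 5.43 from WT +dox to F266A -dox. Cdx2, Gata3, Gata4, Gata6, Sox17, Sox1 and Pax6 of these lists are also on the list of Polycomb targets below. In bulk RNA, fewer cells of a type and less RNA per cell cannot be told apart. A control probe set for 18S ribosomal RNA (its middle part) was also lower along the order of Mtf2 and Suz12 in group means, although the arrays of both WT groups overlapped, from 11.42 and 10.99 in the WT +dox arrays through 11.13 and 10.78 in the WT -dox arrays and 10.61 and 10.35 in the F266A +dox arrays to 9.60 and 9.57 in the F266A -dox arrays. The part of these differences in the Polycomb values was not tested.

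**Figure D3:**
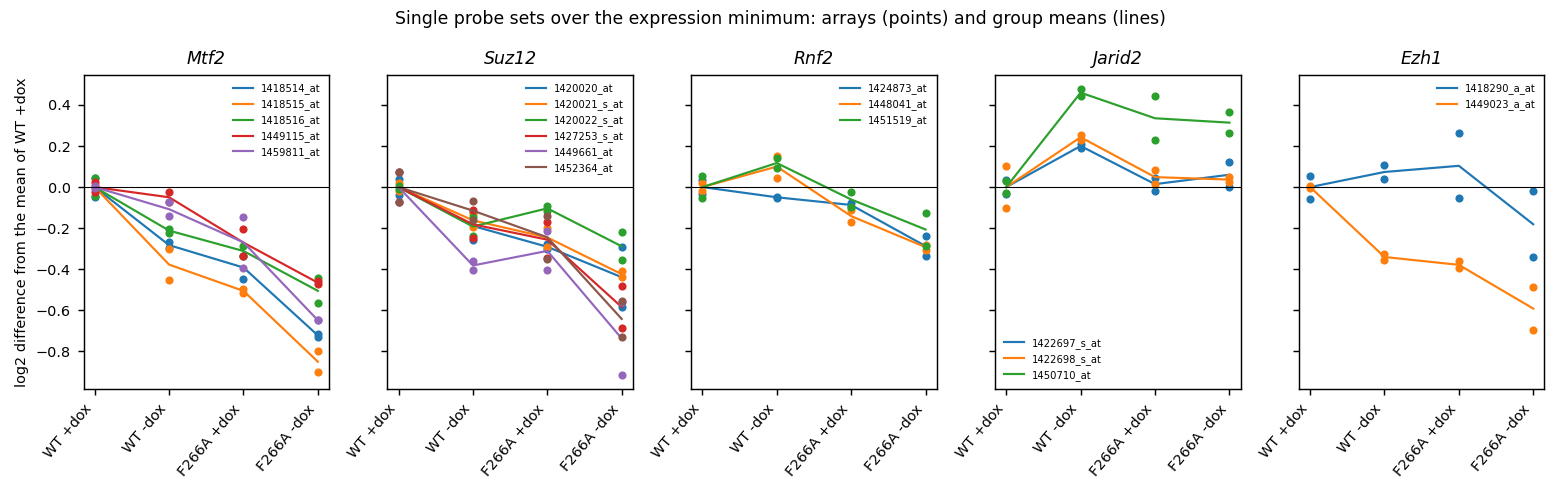
Log2 difference from the mean of WT +dox (y axis) of each probe set over the minimum in the 4 groups (x axis), for the 5 genes Mtf2, Suz12, Rnf2, Jarid2 and Ezh1. Points are arrays and lines join group means (n = 2). All 5 Mtf2 and all 6 Suz12 lines end below 0 in F266A -dox, and the 2 Ezh1 lines separate.

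A list of 35 further Polycomb group genes was examined in the same fit, and 32 were tested. Of these, 10 were called on WT withdrawal (7 rose and 3 fell, against 31.5% of all genes called), 5 between the induced lines (all higher in F266A, against 28.3%), 4 on F266A withdrawal (2 rose and 2 fell, against 19.5%), 6 between the uninduced lines (2 higher and 4 lower in F266A, against 27.4%) and 18 between the end groups (12 rose and 6 fell, against 50.9%). The list's shares were thus near or below those of all genes. The median differences over this list lay between 0.00 and 0.08 in these 5 comparisons. Among partners of PRC2, Epop, an accessory subunit that joins the Mtf2-type complex, read 8.18 and 8.03 in the WT +dox arrays, 8.74 and 8.78 in the WT -dox arrays, 8.33 and 8.24 in the F266A +dox arrays and 8.81 and 8.52 in the F266A -dox arrays. It rose on withdrawal in both lines, by 0.65 ± 0.10 (SE, adjusted p = 0.00122) in WT and by 0.38 ± 0.10 (SE, adjusted p = 0.0269) in F266A, the latter not called without either F266A +dox array or the first F266A -dox array (adjusted p = 0.0829 to 0.136). The histone chaperone Rbbp4, a core PRC2 component, was lower in F266A -dox than in WT -dox (-0.27 ± 0.08, SE, adjusted p = 0.033).

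Genes of PRC1 complexes also moved in both directions. Yaf2, which takes the place of the Cbx protein in such complexes, was 7.61 and 7.74 in the WT +dox arrays, 7.84 and 7.89 in the WT -dox arrays, 8.28 and 8.11 in the F266A +dox arrays and 8.58 and 8.61 in the F266A -dox arrays, and the 4 groups did not overlap. It was higher by 0.92 ± 0.08 (SE, adjusted p = 1.58e-05) in F266A -dox than in WT +dox. Kdm2b, which binds unmethylated CpG islands, rose by 0.44 ± 0.08 (SE, adjusted p = 0.00348) on WT withdrawal, and L3mbtl2, a member of the complex with Mga and E2f6, rose by 0.43 ± 0.07 (SE, adjusted p = 0.00193). Bmi1, a partner of the ligases in canonical PRC1, fell by 0.67 ± 0.15 (SE, adjusted p = 0.0129) on F266A withdrawal and was not called there without either F266A +dox array or the second F266A -dox array (adjusted p = 0.061 to 0.0833). Pcgf1, the Bmi1 paralogue of the Kdm2b complex, and Mga were lower in F266A -dox than in WT -dox (-0.45 ± 0.12 and -0.38 ± 0.10, SE, adjusted p = 0.0233 and 0.0227). The Polyhomeotic gene Phc2 was higher in F266A than in WT with doxycycline (0.40 ± 0.08, SE, adjusted p = 0.00445) and without it (0.34 ± 0.08, SE, adjusted p = 0.00953), and its relative Phc3 fell by 0.32 ± 0.08 (SE, adjusted p = 0.0161) on WT withdrawal.

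**Figure D4:**
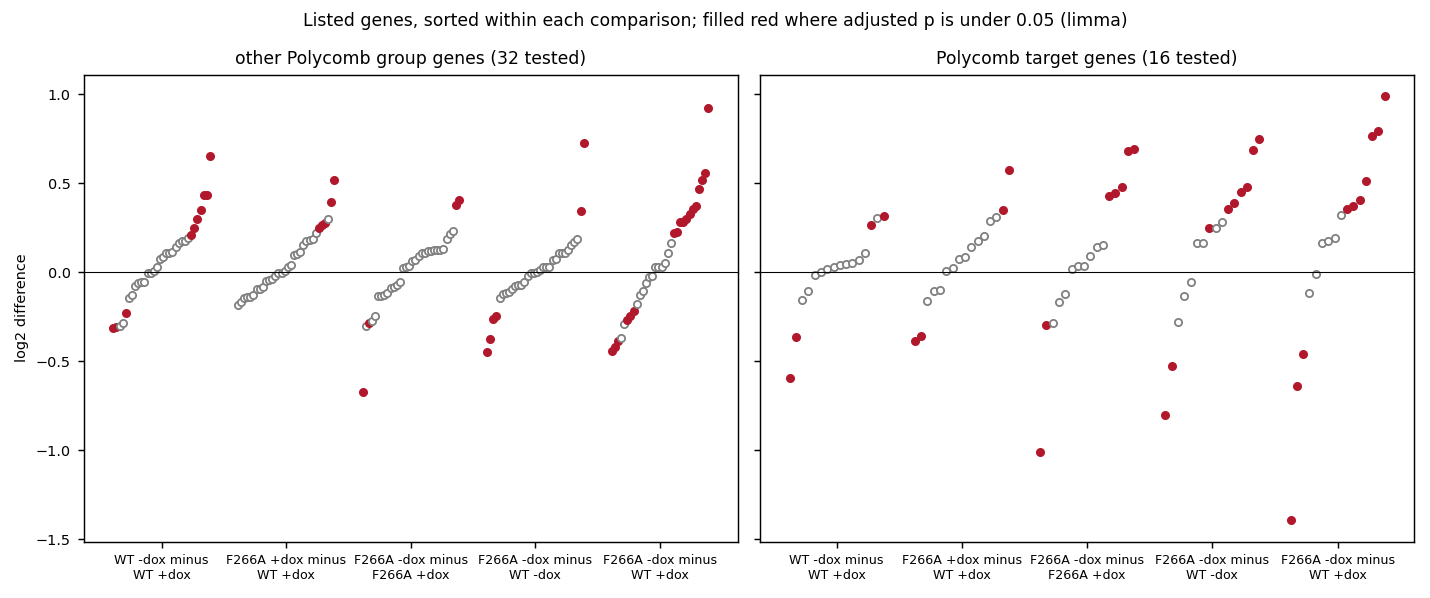
Log2 difference (y axis) of each tested gene of 2 lists in 5 comparisons (x axis), sorted within a comparison. Left, 32 other Polycomb group genes, and right, 16 Polycomb target genes. Filled red points have an adjusted p under 0.05 in limma. Called genes lie on both sides of 0 in most comparisons, and the lowest point on the right is Tbx3 (-1.39).

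Developmental genes with bivalent promoters in ESCs, the textbook targets of these complexes, were often too low to be tested: 16 of 32 passed the minimum. On WT withdrawal 4 were called (2 rose and 2 fell, against 31.5% of all genes called), between the induced lines 4 (2 and 2, against 28.3%), on F266A withdrawal 7 (5 and 2, against 19.5%), between the uninduced lines 9 (7 higher and 2 lower in F266A, against 27.4%) and between the end groups 10 (7 and 3, against 50.9%). These shares lay below that of all genes in the first pair of comparisons and above it in the other 3. The median differences over the 16 genes were 0.04, 0.08, 0.06, 0.25 and 0.26 in these 5 comparisons. The averaged values of Foxa2, Irx3 and Hoxd9 were over the minimum in F266A -dox arrays alone. The minimum thus favours genes that are high in that group. Counts and medians of the comparisons with F266A -dox are therefore in part set by it and are no evidence of a rise of the targets. Tbx3, a T-box factor also active in ESCs, read 9.22 and 9.43 in the WT +dox arrays, 8.72 and 8.74 in the WT -dox arrays, 8.93 and 8.95 in the F266A +dox arrays and 7.93 and 7.92 in the F266A -dox arrays. It fell by 0.60 ± 0.08 (SE, adjusted p = 0.000609) on WT withdrawal and by 1.01 ± 0.08 (SE, adjusted p = 0.000208) on F266A withdrawal. The endoderm factor Foxa2 rose by 0.31 ± 0.07 (SE, adjusted p = 0.00793) and 0.69 ± 0.07 (SE, adjusted p = 0.000462) in these comparisons, from means of 5.25 and 5.32 that lie under the minimum, and its rise on WT withdrawal was not called without the first WT -dox array (0.27, adjusted p = 0.067). The trophoblast factor Cdx2, which the study itself followed in these cells and which is therefore no independent pick, rose by 0.68 ± 0.16 (SE, adjusted p = 0.0185) on F266A withdrawal, from a mean of 5.49 under the minimum, and it was not called there without either F266A -dox array or the first F266A +dox array (adjusted p = 0.0544 to 0.141). The homeobox gene Msx2 was higher in F266A -dox than in WT -dox by 0.75 ± 0.09 (SE, adjusted p = 0.0003) and the neural factor Olig2 lower (-0.53 ± 0.07, SE, adjusted p = 0.000704). No test linked these genes to the levels of the subunits.

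For Ezh2, Jarid2 and Cbx7, the genes with the most similar profile over the 8 arrays were looked up. The closest to Ezh2 were Atp10a (Pearson r = 0.986), Pradc1 (0.985) and Rps6 (0.983), and 491 genes exceeded 0.9. Those closest to Jarid2 were Mto1 (0.983), Mical1 (0.981) and Snapc3 (0.980), among 215 genes over 0.9, and those closest to Cbx7 were Chpf2 (0.939), Ssr1 (0.921) and Mettl1 (0.912), with 3 genes over 0.9. The 8 points fall into 4 groups and share their processing, so these values only describe likeness of profile.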

How the data were processed

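Groups and replicate numbers were taken from the sample labels. Log2 values were deposited for 45101 probe sets, which the authors had obtained with justRMA (R 2.11.1, submitters' processing notes), and they were not normalized again. RMA sets all arrays to one distribution, so a change in total RNA per cell is not seen. As in the methods of the study, probe sets whose linear value passed 50 in 1 array or more were kept and averaged per gene. Only the 34945 probe sets with exactly 1 gene symbol were used (932 carry several, 9160 none, 64 are controls).

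A linear model with a mean per group was fitted to all 8 arrays (limma 3.58.1, R 4.3.3, with 4 residual and 5.32 prior degrees of freedom), two-sided, with Benjamini-Hochberg adjustment over 11940 genes or, for single probe sets, 20046. The script was tested on simulated data. SAM, used in the study, was not run. Arrays give no read counts, so their number limits the precision; the median SE of a difference was 0.08. No replicate block was used in the main fit, since the methods of the study state none. Same-numbered arrays deviated together within a line (r = 0.13 and 0.16) and in opposite directions between lines (r = -0.18 to -0.11).

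The subunits and gene lists were chosen with earlier results of these data known. Named were all subunits, Wdr5, up to 6 called genes per list and comparison with the largest differences (not all printed), and 3 genes of most similar profile for Ezh2, Jarid2 and Cbx7. The further Polycomb group list held Rbbp4, Rbbp7, Aebp2, Phf1, Phf19, Epop, Ezhip, Cbx6, Cbx8, Phc1, Phc2, Phc3, Bmi1, Pcgf1, Pcgf2, Pcgf3, Pcgf5, Pcgf6, Rybp, Yaf2, Kdm2b, L3mbtl2, E2f6, Mga, Max, Bcor, Bcorl1, Scmh1, Scml2, Usp7, Dcaf7, Auts2, Bap1, Asxl1 and Asxl2. Some listed genes are not reported here. Alternatives were other expression minimums, the probe set with the highest mean, quantile normalization, median centring, a fit of the compared groups alone, a replicate block, a trended and robust prior, a 2-fold threshold and leaving out each array.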

Additional observations from a re-analysis of the deposited data

Results flagged for a closer look

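Eomes, a T-box gene of mesendoderm and trophoblast on the list of Polycomb targets, was called in the interaction test (0.49 ± 0.11, SE, adjusted p = 0.0362, limma). It was the 1 call among the 16 tested targets (6.25%), near the share of all genes called (5.15%). It read 7.76 and 7.78 in the WT +dox arrays, 7.67 and 7.84 in the WT -dox arrays, 7.69 and 7.64 in the F266A +dox arrays and 8.18 and 8.10 in the F266A -dox arrays. The call was lost in 11 of 15 alternative analyses, among them those without each array other than the second WT -dox array, with differences from 0.41 to 0.53. Groups of 2 arrays are too small to screen for an outlying array.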

How the results depend on the processing

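With 2 arrays per group, differences of about 0.2 to 0.3 on the log2 scale lie close to the threshold. Where a cause is not named below, it was not tested. Counts of subunits called were 5 on WT withdrawal, 2 between the induced lines, 5 on F266A withdrawal, 4 between the uninduced lines, 6 between the end groups, and 0 for the interaction and between F266A +dox and WT -dox. With no expression minimum they were 1, 1, 0, 2 and 3 in the first 5, respectively. At a 2-fold threshold they were 0 throughout, with 162, 234, 48, 216 and 653 of all genes, 61 for the interaction and 82 between F266A +dox and WT -dox. The groups compared alone gave 3 on WT withdrawal and 1 on F266A withdrawal, the probe set with the highest mean 2 on F266A withdrawal, and median centring 1 between the induced lines. The trended and robust prior gave 7 between the uninduced lines, 2 for the interaction and 2 between F266A +dox and WT -dox, and quantile normalization gave 1 in the last. With the replicate number as a block the counts were 4, 1, 3, 3 and 6, and the interaction stayed at 0. Exchanging the numbers of the F266A arrays in the block, an alternative chosen after seeing the data, gave 6, 2, 5, 4 and 6. Leaving out 1 array gave 0 to 5 on WT withdrawal, 1 to 2 between the induced lines, 1 to 4 on F266A withdrawal and 1 to 4 between the uninduced lines. All genes called then ranged from 2360 to 3918, 1931 to 3511, 1009 to 2268 and 1947 to 3227, from 174 to 689 for the interaction (615 with all arrays) and from 633 to 1732 between F266A +dox and WT -dox (1611). With no expression minimum, 1537 genes were called on F266A withdrawal (2333 with it), 290 for the interaction and 1059 between F266A +dox and WT -dox, and the trended and robust prior called 1110 for the interaction. Of all single probe sets, 27.5% were called on WT withdrawal, 21.8% between the uninduced lines and 47% between the end groups. Of all genes, 28.3% were called between the induced lines and 19.5% on F266A withdrawal. Beside these shares, of 25 single probe sets of the subunits, 8, 7, 6, 11 and 17 were called in the 5 comparisons and 0 in the other 2. Without an expression minimum these were 3, 4, 0 and 7 in the first 4, at 2-fold 0, and with 1 array left out 2 to 7, 3 to 9, 0 to 4 and 4 to 10. On F266A withdrawal the groups alone gave 1 and the trended and robust prior 10, which also gave 1 for the interaction and 4 between F266A +dox and WT -dox, where quantile normalization gave 1, and the exchanged block gave 1 for the interaction.

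No called difference of a subunit changed sign, and those that did were small. With no expression minimum Cbx2 was at -0.034 between the induced lines. With the highest probe set Rnf2 was at -0.0497 on WT withdrawal, Jarid2 at -0.012 on F266A withdrawal and Mtf2 at 0.018 for the interaction. With quantile normalization Cbx7 was at -0.0071 between the induced lines, and on F266A withdrawal Eed was at -0.00058 and Jarid2 at -0.019. With median centring Jarid2 was at -0.0053 on F266A withdrawal and Cbx7 at -0.0026 between the uninduced lines. Over the fits that left out 1 array, Cbx7 ranged from -0.034 to 0.078 on WT withdrawal, from -0.051 to 0.052 between the induced lines, from -0.025 to 0.094 on F266A withdrawal, from -0.043 to 0.076 between the uninduced lines and from -0.000598 to 0.094 between the end groups. On F266A withdrawal Eed ranged from -0.0605 to 0.106 and Jarid2 from -0.053 to 0.062, Ring1 ranged from -0.095 to 0.014 between the induced lines, and the Suz12 interaction from -0.151 to 0.0036.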
